A study of Vitis vinifera with 24 samples.

Results

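The comparison asked how soil nitrogen changed the transcripts of Sauvignon blanc berries (Vitis vinifera) at (v + 28) in 2013, that is 28 days after mid-veraison, the midpoint of berry softening. Control vines received no nitrogen, and soil N100 vines received ammonium nitrate at bud break and at flowering, on a Bordeaux vineyard plot chosen for its low nitrogen status. All vines of 2013 carried the same clone on the rootstock Fercal and were irrigated against water deficit. Of the 24 libraries of the series 6 belong to the comparison, 3 biological replicates of control and 3 of soil N100. Each library was made from poly(A) RNA of whole berries, and a whole berry can hold skin, flesh and seeds, so that fewer cells of a type and less RNA per cell cannot be told apart. Expression was given as RPKM, the reads of a gene scaled to its exon length and to the size of the library. For 2013, 25951 genes were listed, and the 17298 whose mean over the 12 libraries of that year reached 0.5 RPKM were tested.

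The fit used log2(RPKM + 0.5), so that a log2 fold change (soil N100 over control) understates the change of a gene expressed near 0.5 RPKM. Genes were called as higher or lower where limma gave an adjusted p (Benjamini-Hochberg) no larger than 0.05 and the log2 fold change was 0.6 or more in either direction. Where a gene is said to pass the unadjusted threshold, the same fold was reached with an unadjusted p of at most 0.05. Errors of log2 fold changes are SE, and n is 3 libraries per group throughout.

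Nitrate taken up by the roots is reduced to nitrite and then, by nitrite reductase, to ammonium. Glutamine synthetase fixes the ammonium in glutamine, and glutamate synthase and asparagine synthase pass the amide nitrogen of glutamine on to other amino acids. Grape berries store much of this nitrogen as free amino acids, among them proline. Berries lose chlorophyll during ripening and accumulate chitinases, thaumatin-like proteins and osmotins, which belong to the pathogenesis-related (PR) proteins of plants.

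The libraries differed in depth. Reads in genes, recovered from the steps of the RPKM values, were 30.3 to 35.6 M for control and 44.2 to 53.9 M for soil N100, and the shallowest soil N100 library thus exceeded the deepest control library. On the log2 scale the soil N100 libraries were also less alike. Replicate 2 of soil N100 correlated with control replicates 1 and 3 at Pearson's r of 0.993 and 0.992, and with soil N100 replicates 1 and 3 at 0.990 and 0.979. Replicate 3 of soil N100 had the lowest correlations with the other libraries, 0.975 to 0.985. Counts of calls, list medians and the comparisons with ripening, stage and year are therefore also given without soil N100 replicate 2.

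Between the groups, 12 genes were called (0.0694%), 5 higher (0.0289% of the genes tested) and 7 lower (0.0405%) in soil N100 berries. At the unadjusted threshold 311 genes were higher (1.8%) and 242 lower (1.4%). The whole distribution lay below 0, with a median log2 fold change of -0.10 over all genes tested and a positive value in 30.1% of them. The median was -0.06 in the shortest genes (33 to 772 exon bases) and -0.13 in the longest (2167 to 15338 bases). The part of depth and of length in the median was not tested. After rescaling the libraries by their median ratios the median was -0.01, 6 genes were called (4 higher and 2 lower), while 447 genes (2.58%) passed the unadjusted threshold on the higher side and 131 (0.757%) on the lower side. Values below are on the deposited scale, on which a gene that followed the bulk of the transcriptome has a log2 fold change near -0.10.

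**Figure D1:**
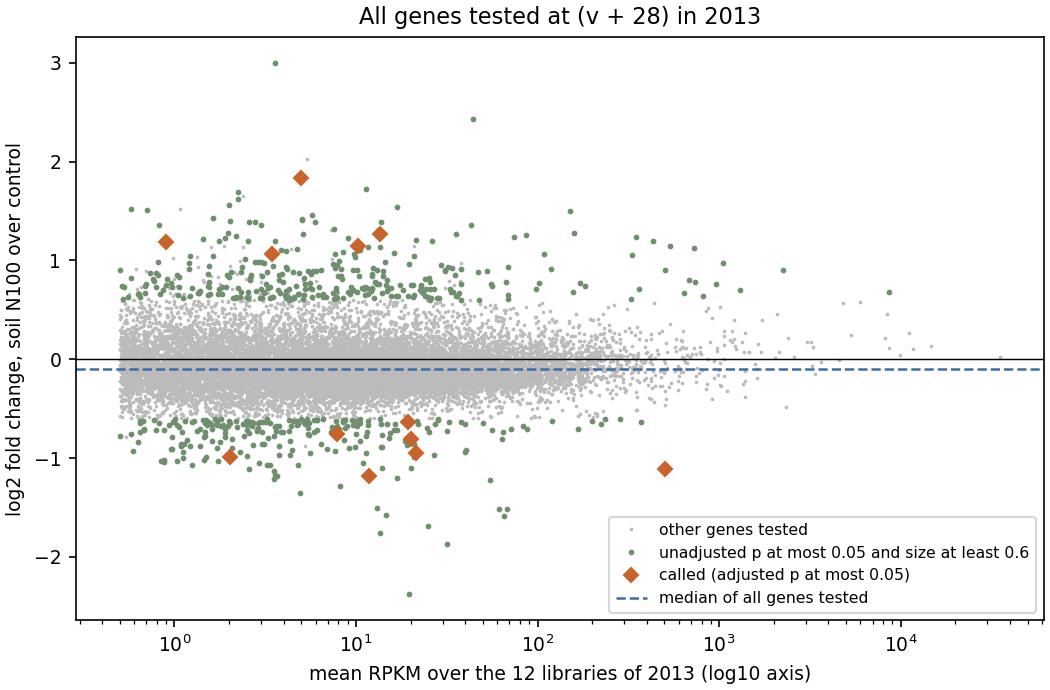
Log2 fold change of soil N100 over control at (v + 28) in 2013 against the mean RPKM over the 12 libraries of 2013 (log10 axis), 1 point per gene for 17298 genes. The 12 called genes (diamonds) lie between log2 fold changes of -1.19 and 1.84, and the dashed line marks the median of all genes, -0.10.

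The 3 soil N100 libraries exceeded each of the 3 control libraries for 983 genes (5.68%) and were below them for 3808 genes (22%). After median-ratio rescaling these numbers were 1847 (10.7%) and 1731 (10%). Among the 4791 genes (27.7%) without overlap on the deposited scale, soil N100 replicate 2 was the soil N100 library nearest to the controls in 59.5%, replicate 1 in 20.6% and replicate 3 in 19.8%. Of the single libraries left out, soil N100 replicate 2 changed the number of called genes most. Without it 203 genes were called as higher (1.17%) and 239 as lower (1.38%), all 12 genes of the full comparison among them, and with median ratios in addition 211 (1.22%) and 69 (0.399%). Leaving out control replicate 1 left 4 calls in limma, and leaving out any of control replicates 2 and 3 and soil N100 replicates 1 and 3 left 0, with 215 to 359 genes higher and 176 to 284 lower at the unadjusted threshold. With reads thinned to an equal library size, 44 genes were called (19 higher and 25 lower).

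**Figure D2:**
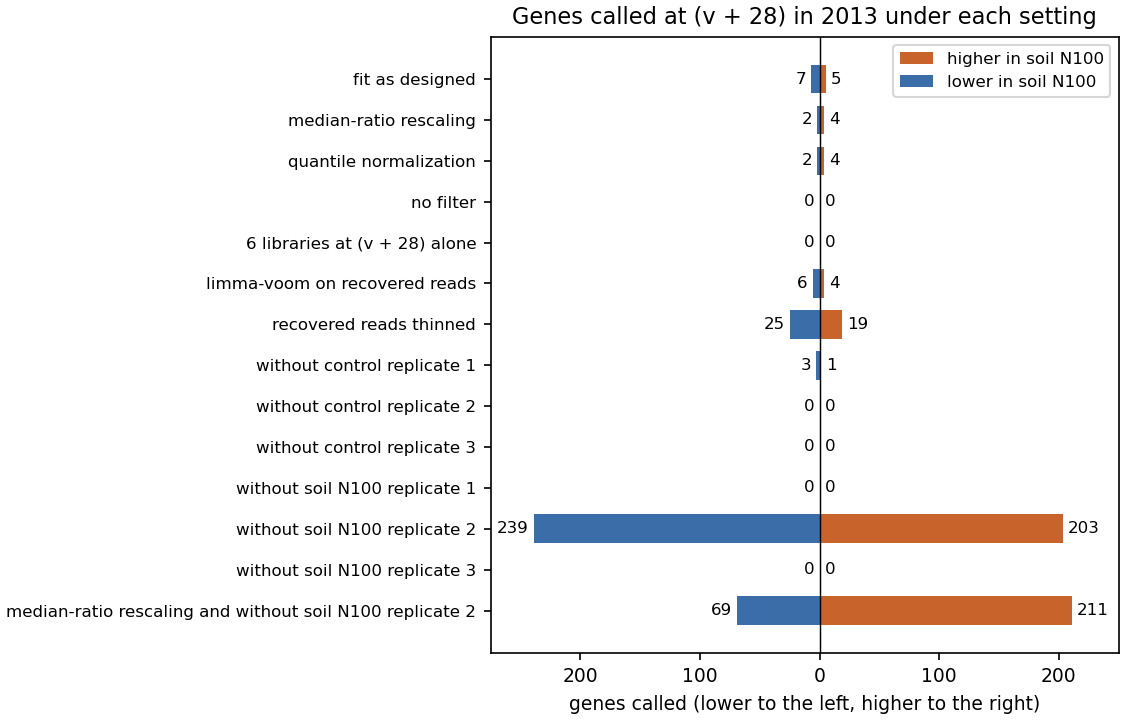
Number of genes called as higher (right) and lower (left) in soil N100 berries under each setting. The fit as designed gave 5 and 7 genes, and the fit without soil N100 replicate 2 gave 203 and 239.

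Of the 7 genes that fell, 6 carry a description. Proline oxidase (VIT_14s0083g00520), which starts the breakdown of proline, stood at 12.0, 18.3 and 17.4 RPKM in the control libraries and at 6.20, 7.45 and 6.23 RPKM in the soil N100 libraries. Every soil N100 value was well below the lowest control value, and the log2 fold change was -1.19 ± 0.15 (adjusted p = 0.0237). ENDO 2 (VIT_01s0011g03670), an endonuclease and the most abundant of the called genes, measured 505, 759 and 571 RPKM in control and 233, 329 and 280.1 RPKM in soil N100 berries. The groups did not overlap, with a log2 fold change of -1.12 ± 0.17 (adjusted p = 0.039). PROLIFERA (VIT_07s0005g01430), a subunit of the MCM helicase that opens DNA for replication, was low in both groups, at 3.08, 3.58 and 2.34 RPKM in control and 1.13, 1.47 and 1.16 RPKM in soil N100 libraries, and fell by 0.99 ± 0.16 on the log2 scale (adjusted p = 0.0494).

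A gene described as a chloroplast nucleoid DNA-binding protein (VIT_00s1206g00010) gave 23.1, 24.8 and 27.9 RPKM in control and 12.7, 13.6 and 12.1 RPKM in soil N100 libraries. Its groups were tight and far apart (log2 fold change -0.95 ± 0.11, adjusted p = 0.0237). The S-adenosylmethionine-dependent methyltransferase VIT_04s0023g02200 measured 25.4, 29.9 and 22.8 RPKM in control and 14.3, 14.6 and 14.8 RPKM in soil N100 libraries, with soil N100 replicates closer to each other than the controls were (log2 fold change -0.81 ± 0.12, adjusted p = 0.041). An AWPM-19-like membrane protein (VIT_10s0003g02620), of a family first described from wheat plasma membranes, was at 10.4, 11.0 and 11.0 RPKM in control and 5.88, 6.62 and 6.02 RPKM in soil N100 berries (log2 fold change -0.76 ± 0.11, adjusted p = 0.039). VIT_01s0010g00530, which has no description in the sources used here, had the smallest change of the called genes, -0.64 ± 0.09 (adjusted p = 0.039).

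The 5 genes that rose had all 3 soil N100 libraries above all 3 controls. The pectate lyase VIT_01s0137g00240, an enzyme that cuts the pectin of cell walls, had 2.18, 2.43 and 3.69 RPKM in control and 11.8, 7.58 and 14.7 RPKM in soil N100 berries. With a log2 fold change of 1.84 ± 0.28 (adjusted p = 0.0427) it had the largest change of the called genes. A Myb family transcription factor (VIT_07s0197g00060) measured 8.98, 6.66 and 8.47 RPKM in control and 22.1, 14.8 and 23.8 RPKM in soil N100 libraries (log2 fold change 1.26 ± 0.19, adjusted p = 0.039). A gene for a DC1 domain protein (VIT_01s0127g00540) stood at 7.23, 5.90 and 5.94 RPKM against 17.3, 12.1 and 14.8 RPKM, in the same order (log2 fold change 1.14 ± 0.17, adjusted p = 0.039). Its lowest soil N100 value, that of replicate 2, was still above the highest control.

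A class 3 lipase (VIT_07s0141g00360), one of the enzymes that free fatty acids from lipids, had 1.84, 1.81 and 2.83 RPKM in control and 4.73, 4.23 and 6.21 RPKM in soil N100 libraries (log2 fold change 1.07 ± 0.16, adjusted p = 0.039). A gene described as a RING finger protein or polyphenol oxidase (VIT_10s0116g00560) was near the limit of the test, at 0.485, 0.204 and 0.365 RPKM in control and 1.54, 1.17 and 1.60 RPKM in soil N100 libraries (log2 fold change 1.19 ± 0.15, adjusted p = 0.0237). Every control value lay below the 0.5 RPKM that the filter asked of the mean, and every soil N100 value above it. The gene was thus tested because of its values outside these controls. Soil N100 replicate 2 was the soil N100 library nearest to the controls in 10 of the 12 called genes and the farthest in 0. Without soil N100 replicate 2 the pectate lyase had a log2 fold change of 2.09 and proline oxidase one of -1.27.

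**Figure D3:**
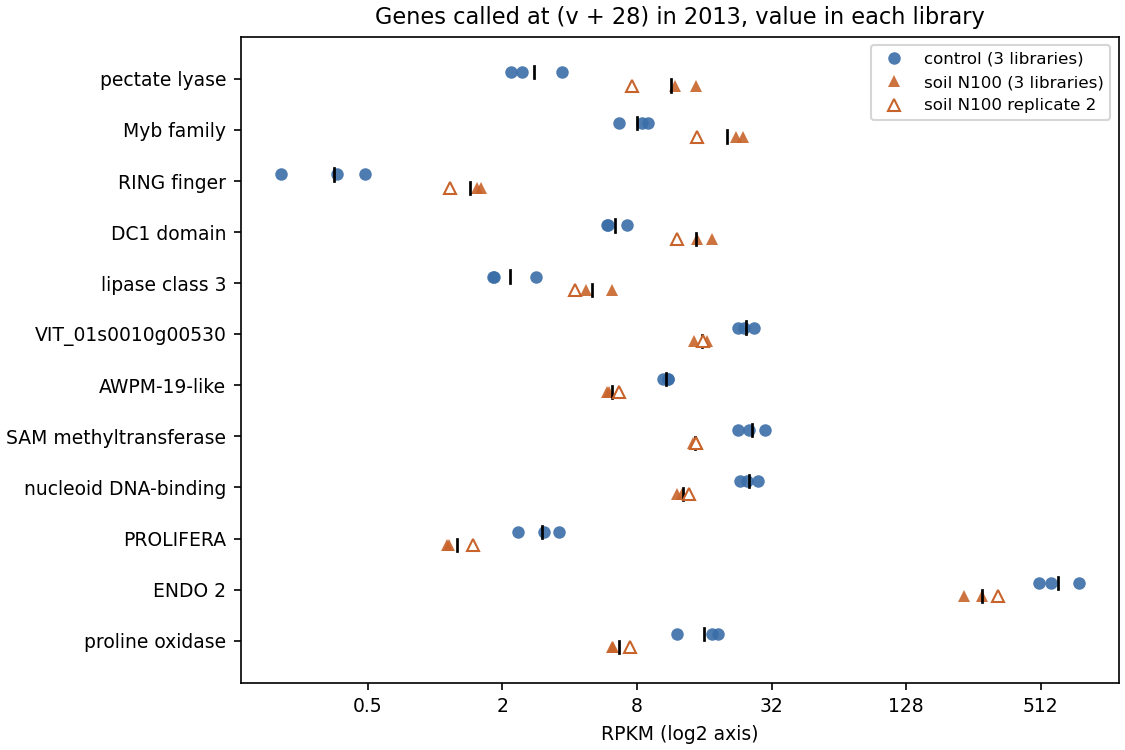
RPKM (log2 axis) of the 12 called genes in each of the 3 control libraries (circles) and the 3 soil N100 libraries (triangles, replicate 2 open), with the group mean as a black bar. The groups do not overlap in any of the 12 genes, and in 10 of them soil N100 replicate 2 is the triangle nearest to the circles.

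Functions below rest on 648 genes that the study described, 595 of them tested. The study picked 399 of these at (v + 28) in 2013 from the same libraries, 382 of them tested, so their counts and medians are descriptions and not independent evidence of a direction. Members that the study listed only at (v + 35) in 2013 or only in 2014 were picked for their change in other libraries. That they were not listed at (v + 28) was decided on the libraries used here. Their counts past the unadjusted threshold are therefore not free of the choice either. The count of each list pools these sources, and the members listed elsewhere are then given apart for the main lists. Over all genes tested, 1.8% were higher and 1.4% lower at the unadjusted threshold. Without overlap, 5.68% were higher and 22% lower. Leaving out soil N100 replicate 2, 1.17% were called as higher and 1.38% as lower. That library was the soil N100 library nearest to the controls in 76.5% of the 553 genes past the unadjusted threshold. Leaving it out therefore favours larger differences and more calls, and calls made that way are descriptions. Leaving out soil N100 replicate 1 or 3, or control replicate 2 or 3, left 0 calls in any list. The counts below are to be read beside these shares.

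Genes of nitrate use lay higher in soil N100 berries. For 7 of the 9 tested members, the 7 that the study listed at (v + 28), the soil N100 libraries exceeded every control and the unadjusted threshold was passed. None was called, and the median of the list was 0.76. Nitrite reductase NIR1 (VIT_03s0063g00370) had 22.1, 22.6 and 24.6 RPKM in control and 40.5, 30.7 and 44.1 RPKM in soil N100 libraries, a log2 fold change of 0.71 ± 0.13 that narrowly missed the adjusted threshold (adjusted p = 0.0562). NADH glutamate synthase (VIT_16s0098g00290) stood at 29.2, 18.0 and 26.6 RPKM and 41.4, 47.1 and 36.1 RPKM (log2 fold change 0.76 ± 0.15, adjusted p = 0.0573). Here soil N100 replicate 2 was the highest library, unlike in NIR1. The 2 members listed only at (v + 35) were at -0.34 and 0.52 and overlapped between the groups.

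A pair of LBD38 genes, whose Arabidopsis namesake is a nitrogen-responsive repressor of transcription, had the same order. VIT_03s0091g00670 measured 11.5, 13.5 and 10.2 RPKM in control and 24.8, 16.7 and 23.3 RPKM in soil N100 libraries (log2 fold change 0.84 ± 0.17, adjusted p = 0.0573). Asparagine synthase ASN1 (VIT_06s0004g06830) was expressed at a low level, 1.74, 1.15 and 2.20 RPKM in control and 3.43, 2.31 and 4.85 RPKM in soil N100 libraries (log2 fold change 0.85 ± 0.26). The hemoglobin AtHB1 homologue (VIT_03s0063g01960) read 48.6, 52.3 and 34.5 RPKM in control and 110.5, 53.4 and 105 RPKM in soil N100 libraries. Its replicates 1 and 3 were far above the controls, and replicate 2 lay just above the highest control. Without soil N100 replicate 2 NIR1, both LBD38 genes, the hemoglobin, glutamate synthase and ASN1 were called, with adjusted p of 0.0093, 0.0187, 0.0314, 0.03, 0.0462 and 0.0428. The nitrate transporter ATNRT1:2 (VIT_01s0026g01570), at 33.9, 27.7 and 31.1 RPKM and 59.0, 42.1 and 45.5 RPKM, was not called (adjusted p = 0.11).

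Genes that move or use amino acids and peptides went both ways. Of 11 tested, 6 were lower and 2 higher at the unadjusted threshold, proline oxidase was the called member, and the median was -0.72 (-0.78 without soil N100 replicate 2). All of these 8 genes were among the 10 listed at (v + 28), and the single tested member listed only at (v + 35) was at 0.60. Oligopeptide transporter OPT1 (VIT_19s0015g00860) was at 1.53, 1.69 and 1.75 RPKM in control and 0.367, 0.863 and 0.478 RPKM in soil N100 libraries (log2 fold change -1.04 ± 0.18, adjusted p = 0.0562). Among the genes described as amino acid transporters, VIT_06s0009g01140 measured 41.3, 39.3 and 37.2 RPKM in control and 24.9, 25.4 and 20.7 RPKM in soil N100 libraries (log2 fold change -0.72 ± 0.14), while VIT_13s0019g04660 measured 5.36, 2.19 and 3.75 RPKM and 15.1, 7.86 and 10.1 RPKM (1.46 ± 0.30). A further one, VIT_14s0108g00630, was on the higher side as well (log2 fold change 1.40 ± 0.28). None of these 4 genes (OPT1 and the 3 amino acid transporters) overlapped between the groups, and their adjusted p were 0.0562 to 0.0595. Without soil N100 replicate 2 all 4 were called.

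Photosystem and light-harvesting genes lay higher in soil N100 berries throughout. All 26 tested members had a positive log2 fold change, from 0.43 to 1.08 with a median of 0.67. In 24 of them soil N100 was higher without overlap, beside 5.68% of all genes. No member was called, and 15 passed the unadjusted threshold, beside 1.8% of all genes on the higher side. PSBQ-2 (VIT_00s0904g00010), a subunit of the oxygen-evolving part of photosystem II, had 10.7, 6.89 and 9.62 RPKM in control and 20.8, 12.9 and 27.2 RPKM in soil N100 libraries (log2 fold change 1.08 ± 0.34, adjusted p = 0.115). PSAD-2 of photosystem I (VIT_05s0020g03180) measured 22.6, 20.0 and 29.6 RPKM and 40.9, 38.2 and 59.8 RPKM (log2 fold change 0.92 ± 0.29), and PSBW of photosystem II (VIT_14s0081g00060) 7.37, 5.94 and 7.37 RPKM and 12.8, 9.08 and 20.1 RPKM (0.91 ± 0.28). In all of these soil N100 replicate 3 was the highest library.

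The 7 tested members of this list that the study named only at (v + 35), among them rubisco activase RCA (VIT_13s0019g02050) and phosphoribulokinase PRK (VIT_02s0109g00080) of the Calvin cycle, were also all positive, from 0.43 to 0.55, and 5 of them did not overlap. Protochlorophyllide reductase PORA (VIT_19s0014g03160), which makes chlorophyllide in the light, stood at 25.4, 20.4 and 26.8 RPKM in control and 40.7, 35.6 and 43.2 RPKM in soil N100 libraries (log2 fold change 0.71 ± 0.19, adjusted p = 0.0914). ACD1 (VIT_06s0004g00620), the oxygenase that opens the ring of pheophorbide when chlorophyll is broken down, was at 3.04, 3.16 and 3.06 RPKM and 4.89, 3.85 and 5.00 RPKM. The 4 genes of chlorophyll synthesis and breakdown, all listed by the study at (v + 28), had soil N100 libraries above the controls, with a median of 0.62. Without soil N100 replicate 2 the median of the photosystem genes was 0.78 and none was called except PSBW (adjusted p = 0.041) and PSBQ-2 (adjusted p = 0.0493).

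**Figure D4:**
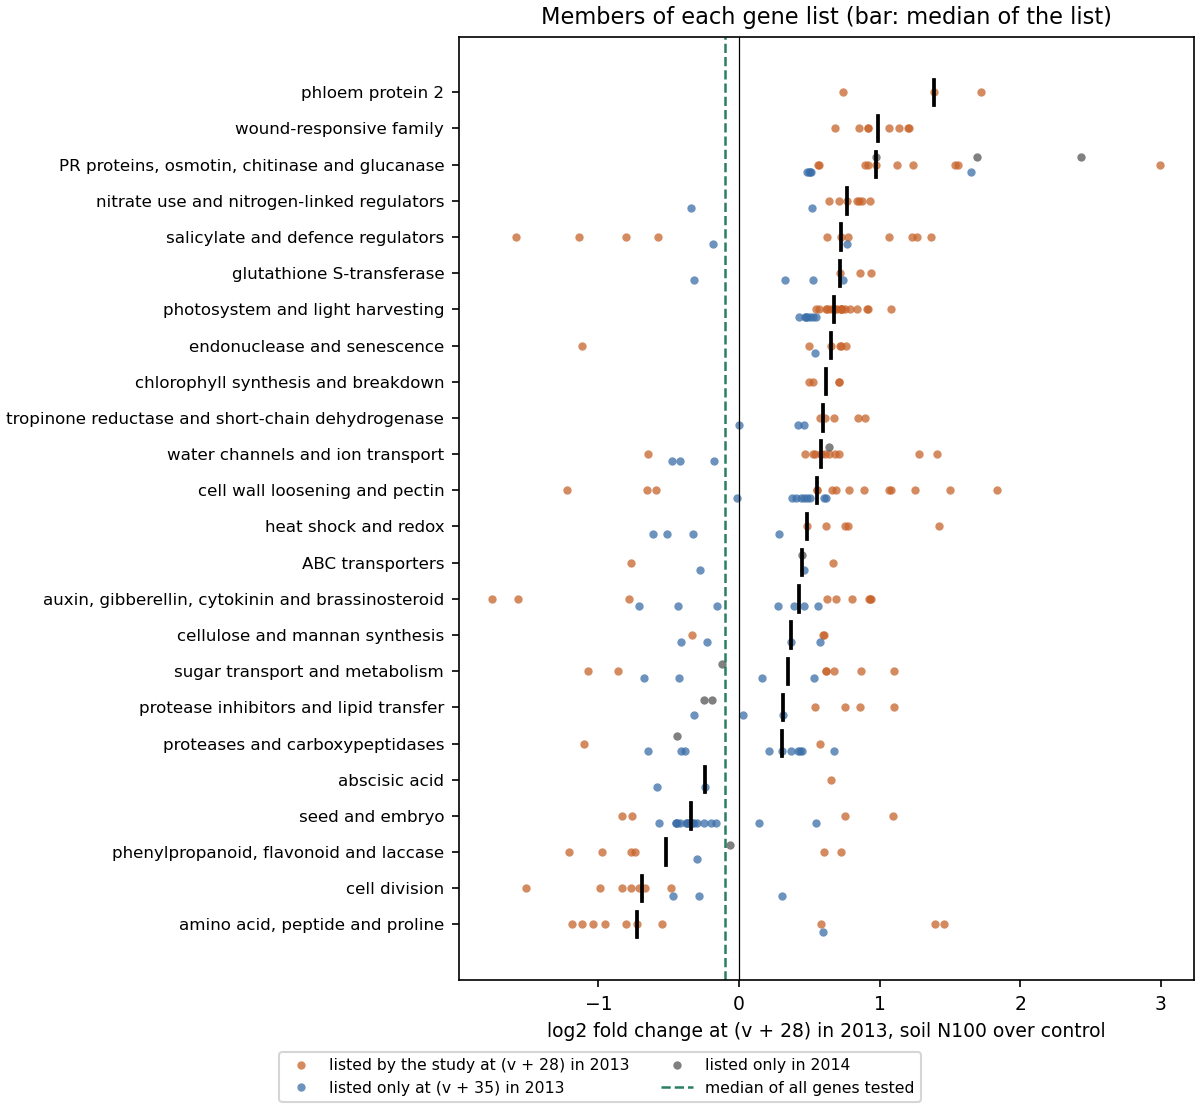
Log2 fold change at (v + 28) in 2013 of every tested member of 24 gene lists, coloured by where the study listed the gene, with the median of each list as a black bar and the median of all genes tested (-0.10) as a dashed line. All 26 photosystem members lie right of 0, and 5 of the 24 list medians lie left of it.

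Pathogenesis-related genes lay higher in soil N100 berries, with wide spreads. Of 18 tested, all had a positive log2 fold change (median 0.97, 0.49 to 3.00), 10 passed the unadjusted threshold and none was called. Of the 10, 8 were listed by the study at (v + 28). The 5 members listed only at (v + 35) were all positive (median 0.51, 0 past the unadjusted threshold, 2 higher without overlap), and the 3 tested members listed only in 2014 were at 0.97 to 2.43 with overlapping groups. PR-1 (VIT_03s0088g00810) had the largest log2 fold change of all genes tested, with 0.995, 0.142 and 0.415 RPKM in control and 10.0, 3.85 and 9.24 RPKM in soil N100 libraries (3.00 ± 0.69, adjusted p = 0.0736). PR-4 (VIT_14s0081g00030) measured 165, 185 and 156 RPKM in control and 583, 212 and 505 RPKM in soil N100 libraries (log2 fold change 1.24 ± 0.33). Replicates 1 and 3 of soil N100 stood high and replicate 2 close to the controls.

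The same order held for the abundant members. Osmotin AtOSM34 (VIT_02s0025g04310) read 509, 357 and 356 RPKM in control and 1283, 599.7 and 876 RPKM in soil N100 libraries (log2 fold change 1.13 ± 0.29). Glucanase BG1 (VIT_08s0007g06040), which cuts the glucans of fungal walls, read 806, 584 and 613 RPKM and 1963, 924 and 1200 RPKM (0.97 ± 0.26). The chitinase VIT_05s0094g00350, the most abundant of these, read 3973, 3169 and 3237 RPKM and 5480, 4504 and 5386 RPKM (0.57 ± 0.15), a smaller difference with a smaller spread. Several osmotin and thaumatin genes have neighbouring IDs and similar products, and as uniquely aligned reads alone were counted, the split of reads between near copies is uncertain. Without soil N100 replicate 2 the median of the list was 1.31 and 12 of the 18 were called, among them PR-1 and PR-4 (adjusted p = 0.0376 and 0.0122).

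Regulators around salicylate, the hormone of defence against biotrophic pathogens, included WRKY70 (VIT_08s0058g01390) at 1.74, 1.01 and 1.06 RPKM in control and 5.24, 2.54 and 3.41 RPKM in soil N100 libraries (log2 fold change 1.23 ± 0.28, adjusted p = 0.0707). A homologue of DMR6 (VIT_16s0098g00860), which in Arabidopsis hydroxylates salicylate, measured 31.1, 25.4 and 19.0 RPKM and 103, 41.8 and 61.1 RPKM (log2 fold change 1.36 ± 0.35). NIMIN-2 (VIT_01s0011g03440), a partner of the salicylate receptor NPR1 in Arabidopsis, stood at 64.6, 60.1 and 43.7 RPKM and 123, 79.3 and 88.4 RPKM (0.78 ± 0.19). In these 3 genes soil N100 replicate 2 was the lowest of the soil N100 libraries and above the highest control.

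In this list the methyltransferases had the opposite sign. VIT_12s0057g01060 had 51.2, 46.7 and 41.7 RPKM in control and 15.4, 21.2 and 10.6 RPKM in soil N100 libraries (log2 fold change -1.58 ± 0.34, adjusted p = 0.061), beside the called VIT_04s0023g02200. Of the 13 tested members 7 were higher and 3 lower at the unadjusted threshold, all of them listed at (v + 28). The median was 0.72, and 0.74 without soil N100 replicate 2, where 4 were called as higher and 2 as lower. A phloem protein 2 group of 3 genes had the highest list median, 1.39. All 3 were listed by the study at (v + 28), so this rank is not independent of the choice. PP2-B13 (VIT_14s0060g02000) measured 3.62, 2.1 and 3.68 RPKM in control and 15.3, 6.06 and 15.1 RPKM in soil N100 libraries (log2 fold change 1.72 ± 0.32, adjusted p = 0.0562), and its neighbour PP2-B15 (VIT_14s0060g01990) 10.0, 7.32 and 7.80 RPKM and 30.6, 14.1 and 26.3 RPKM. Both were called without soil N100 replicate 2 (adjusted p = 0.0093 and 0.0093).

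The wound-responsive family held 8 genes, 7 of them with neighbouring IDs, and the study had listed all 8 at (v + 28). All 8 lay higher in soil N100 berries without overlap (5.68% of all genes did) and at the unadjusted threshold (1.8%). These counts are not independent of the choice. Their log2 fold changes were 0.68 to 1.21, with a median of 0.99. VIT_12s0057g00080 measured 12.5, 19.6 and 16.6 RPKM in control and 39.9, 23.2 and 57.3 RPKM in soil N100 libraries (log2 fold change 1.21 ± 0.31, adjusted p = 0.0824). VIT_12s0057g00070 was at 6.62, 7.52 and 7.31 RPKM and 13.1, 10.7 and 19.1 RPKM (0.91 ± 0.23). In both, and in the summed RPKM of the family (107 to 130 in control and 164 to 348 in soil N100 libraries), soil N100 replicate 3 was the highest library and replicate 2 the lowest of its group. None of the 8 was called in the full comparison, and 6 were without soil N100 replicate 2. Reads shared between the near copies were not counted, so the levels of single members are uncertain.

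Genes that loosen or remodel the cell wall lay mostly higher. Of 23 tested, 11 were higher and 2 lower at the unadjusted threshold, the pectate lyase described above was the called member, and the median was 0.55. Pectinesterase AtPME2 (VIT_07s0005g00730) had 1.45, 1.71 and 2.19 RPKM in control and 3.48, 3.95 and 3.65 RPKM in soil N100 libraries (log2 fold change 0.89 ± 0.15, adjusted p = 0.0562). A polygalacturonase family gene (VIT_08s0007g07880) had a small difference with a small error, 14.2, 13.6 and 15 RPKM and 23.8, 18.2 and 21.7 RPKM (0.55 ± 0.11). An inhibitor of invertase or pectin methylesterase (VIT_16s0022g00870) was lower, with 85.5, 155 and 94.9 RPKM in control and 43.9, 51.8 and 42.4 RPKM in soil N100 libraries (log2 fold change -1.23 ± 0.23, adjusted p = 0.0562). The 9 members listed only at (v + 35), with expansins such as AtEXPB2 (VIT_15s0021g02700) among them, had a median of 0.46, and 4 of them were higher without overlap. The median of the 23 genes was 0.66 without soil N100 replicate 2, with 5 called as higher and 1 as lower.

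Among the water and ion carriers, the tonoplast aquaporin GAMMA-TIP (VIT_08s0007g04780) stood at 339, 278 and 356 RPKM in control and 493, 549 and 548 RPKM in soil N100 libraries (log2 fold change 0.71 ± 0.15, adjusted p = 0.062), with all soil N100 libraries high. The sulfate transporter SULTR3;5 (VIT_11s0016g04160) had 159, 117 and 149 RPKM and 306, 192 and 195 RPKM (0.68 ± 0.21). The anion channel CLC-B (VIT_14s0068g02190), of a family that carries nitrate or chloride into vacuoles, measured 5.11, 2.48 and 4.17 RPKM in control and 16.2, 7.66 and 10.2 RPKM in soil N100 libraries (log2 fold change 1.41 ± 0.27, adjusted p = 0.0562). It was called without soil N100 replicate 2 (adjusted p = 0.0195). Of 16 tested carriers 6 were higher and 1 lower at the unadjusted threshold, the lower one being the cation antiporter ATCHX18 (VIT_02s0025g00810, -0.65 ± 0.13). All of these 7 were among the 12 listed at (v + 28). The 3 tested carriers listed only at (v + 35) were all negative, -0.48 to -0.18, 2 of them lower without overlap, and the single one listed only in 2014 was at 0.64. The median of the 16 carriers was 0.58, and 0.65 without soil N100 replicate 2, with 6 called as higher and 1 as lower. Calcium exchanger CAX3 (VIT_08s0007g02240) and potassium carrier KUP6 (VIT_01s0026g00270) were at 0.64 ± 0.12 and 0.58 ± 0.12.

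Sugar genes were divided, 5 higher and 3 lower at the unadjusted threshold of 12 tested. Beta-fructosidase (VIT_16s0022g00670), an invertase that splits sucrose, had 3.30, 3.05 and 4.15 RPKM in control and 5.68, 7.13 and 7.54 RPKM in soil N100 libraries (log2 fold change 0.86 ± 0.17, adjusted p = 0.0562). Stachyose synthase (VIT_07s0005g01680) had 5.00, 7.28 and 5.54 RPKM and 2.54, 3.45 and 1.81 RPKM (-1.07 ± 0.22), with every soil N100 library below the lowest control. Sucrose synthase SUS4 (VIT_11s0016g00470), listed by the study at (v + 35) alone, was also lower here, 87.8, 114 and 121 RPKM against 72.6, 72.1 and 56.8 RPKM (-0.67 ± 0.20). The 4 tested members with that source had a median of -0.13. Over all 12 the median was 0.34, and 0.47 without soil N100 replicate 2, where 3 were called as higher and 1 as lower.

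Phenylpropanoid genes, which lead from phenylalanine to flavonoids and lignin, had a median of -0.52 over the 8 tested (0.06 over all 14 listed without the filter on low values), with 4 lower and 2 higher at the unadjusted threshold. One phenylalanine ammonia-lyase gene (VIT_13s0019g04460) was at 20.7, 21.6 and 24.5 RPKM in control and 9.5, 16.0 and 8.91 RPKM in soil N100 libraries (log2 fold change -0.97 ± 0.24, adjusted p = 0.0796), another (VIT_08s0040g01710) at 2.93, 2.91 and 4.37 RPKM and 5.77, 4.23 and 6.26 RPKM (0.61 ± 0.20), with overlapping groups. Flavonol synthase VIT_18s0001g03470 measured 21.2, 29.4 and 24 RPKM in control and 7.13, 12.3 and 12.7 RPKM in soil N100 libraries (log2 fold change -1.21 ± 0.31), and VIT_18s0001g03430 was lower by a smaller margin (-0.77 ± 0.29). All 6 genes at the threshold were listed at (v + 28), and without soil N100 replicate 2 the median was -0.44 and 1 gene was called, as lower. Glutathione S-transferases, enzymes that join glutathione to other molecules, had a median of 0.72 over 7 tested, 3 of them higher at the unadjusted threshold. AtGSTU25 (VIT_19s0015g02680) stood at 26.4, 24.7 and 22.3 RPKM in control and 50.2, 32.7 and 63.8 RPKM in soil N100 libraries (log2 fold change 0.94 ± 0.22, adjusted p = 0.0741). The 4 members listed only at (v + 35) all overlapped between the groups. Leaving out soil N100 replicate 2 gave the 7 genes a median of 0.81 and 1 call.

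Hormone genes went both ways, with 6 higher and 4 lower at the unadjusted threshold of 16 tested. BR Enhanced Expression 1 (VIT_01s0011g03720), a brassinosteroid-induced transcription factor of Arabidopsis, had 9.89, 10.8 and 7.11 RPKM in control and 2.15, 2.63 and 2.30 RPKM in soil N100 libraries (log2 fold change -1.76 ± 0.38, adjusted p = 0.0634). Isopentenyltransferase 3 (VIT_09s0070g00710), which makes cytokinins, was at 1.98, 2.26 and 2.00 RPKM and 0.819, 1.41 and 0.845 RPKM (-0.78 ± 0.18). UGT85A1 (VIT_18s0001g05990), a glucosyltransferase of zeatin, was on the other side, at 8.65, 7.33 and 12.3 RPKM and 16.6, 16.0 and 21.6 RPKM (0.92 ± 0.18). None of these 3 genes overlapped between the groups. The 7 tested hormone genes listed only at (v + 35) had a median of 0.28, with 2 higher and 1 lower without overlap. Over all 16 the median was 0.43, and 0.44 without soil N100 replicate 2, with 3 called as higher and 4 as lower. Abscisic acid genes numbered 3. The 1 listed at (v + 28) was at 0.65, higher without overlap and past the unadjusted threshold, and it was called without soil N100 replicate 2. The 2 listed only at (v + 35) were at -0.58 and -0.25 with overlapping groups. The former was the hydroxylase CYP707A4 (VIT_03s0063g00380, -0.58 ± 0.20), which breaks the hormone down.

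Cell division genes lay mostly lower in soil N100 berries. Of 10 tested, 6 were lower and none higher at the unadjusted threshold, PROLIFERA was called, 7 did not overlap on the lower side (22% of all genes did) and 1 on the higher side, and the median was -0.69. All 7 on the lower side were genes that the study had picked on these libraries. The 3 listed only at (v + 35) had a median of -0.28, with 0 past the unadjusted threshold, 0 lower without overlap and 1 higher without overlap. Leaving out soil N100 replicate 2 gave the 10 genes a median of -0.77 and 4 calls, all as lower. Cyclin D1;1 (VIT_01s0026g00710) had 9.68, 10.4 and 11.2 RPKM in control and 4.96, 6.56 and 5.47 RPKM in soil N100 libraries (log2 fold change -0.83 ± 0.16, adjusted p = 0.0562). The DNA primase POLA3 (VIT_02s0025g01350) and a Haspin-related kinase (VIT_14s0060g00450) were at -0.67 ± 0.13 and -0.71 ± 0.14. The gene described as kinesin ATK2 (VIT_12s0028g00670) was at 71.0, 78.5 and 55.7 RPKM in control and 29.4, 27.1 and 15.9 RPKM in soil N100 libraries (-1.52 ± 0.40), without overlap. Summed RPKM of the 10 genes were 166 to 215 in control and 108 to 122 in soil N100 libraries. The 7 listed at (v + 28) summed to 77.6 to 104 in control and 27.5 to 40.9 in soil N100 libraries. The sums of the 3 listed only at (v + 35) overlapped, 81.1 to 111 and 67.3 to 94.8.

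Seed markers were present in every library, and the 25 genes of that list held none at 0 in all 6 libraries. Their summed RPKM were 434, 644 and 788 in the control libraries and 424, 364 and 730 in the soil N100 libraries, ranges that overlap. The 23 tested members had a median of -0.34 (-0.15 without soil N100 replicate 2), and 4 passed the unadjusted threshold, 2 in each direction. The 19 members listed only at (v + 35) had a median of -0.34 as well, and 17 were negative. Of these 19, 0 passed the unadjusted threshold and 2 were lower without overlap, where 22% of all genes were. Oleosin OLEO1 (VIT_16s0013g00880), a protein of seed oil bodies, was at 46.3, 86.9 and 92.7 RPKM in control and 46.0, 41.2 and 96.2 RPKM in soil N100 libraries (log2 fold change -0.34 ± 0.30). Within each group the values of OLEO1 differed by more than the group means did, and replicate 3 was the highest in both. The called AWPM-19-like gene was counted in this list, and its tight values did not follow that pattern. The summed RPKM of the Photosystem category, the markers of green tissue, were 519 to 656 in control and 758 to 1129 in soil N100 libraries. Of its genes, 22 were picked by the study at (v + 28) on these libraries, so the difference of the sum is not independent of the choice. The 8 listed only at (v + 35) summed to 158 to 197 in control and 213 to 291 in soil N100 libraries. The part of tissue make-up in the results was not tested.

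Smaller groups held a few clear members. The DNAJ heat shock gene VIT_18s0001g14440 had 2.76, 2.58 and 2.85 RPKM in control and 8.66, 4.53 and 13.6 RPKM in soil N100 libraries (log2 fold change 1.42 ± 0.29, adjusted p = 0.0595). Senescence-associated SAG21 (VIT_07s0005g00660) was abundant, at 694, 751 and 628 RPKM and 1085, 827 and 1767 RPKM (0.76 ± 0.26), with soil N100 replicate 3 far above the rest. WBC11 (VIT_03s0017g01290), a carrier of wax and cutin lipids in Arabidopsis, was lower, at 5.66, 7.45 and 5.79 RPKM and 3.31, 4.32 and 2.92 RPKM (-0.77 ± 0.14, adjusted p = 0.0562). The aspartyl protease VIT_14s0006g00180 stood at 16.9, 25.7 and 25.0 RPKM in control and 6.50, 13 and 12.0 RPKM in soil N100 libraries (-1.10 ± 0.24). Catalase CAT2 (VIT_00s0698g00010), which removes hydrogen peroxide, was at 0.77 ± 0.21 and a protease inhibitor or lipid transfer gene (VIT_08s0007g01370) at 0.75 ± 0.14, both without overlap. Tropinone reductase and short-chain dehydrogenase genes had a median of 0.60 over 8 tested, 4 of them higher at the unadjusted threshold.

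Some of the largest log2 fold changes lay outside these lists and were chosen after their values were seen. EXL2 (VIT_07s0005g00870), Exordium-like 2, had the most negative log2 fold change of all genes tested, with 9.96, 14.1 and 8.69 RPKM in control and 1.69, 2.68 and 0.948 RPKM in soil N100 libraries (-2.37 ± 0.60, adjusted p = 0.0824). MYB24 (VIT_14s0066g01090) was at 63.4, 67.5 and 46.5 RPKM in control and 21.3, 25.4 and 15 RPKM in soil N100 libraries (-1.52 ± 0.34). In both genes every soil N100 library was below the lowest control, and neither was called. Among genes without a description, VIT_17s0000g09800 (1.24 ± 0.37) and VIT_03s0038g02710 (1.2 ± 0.25) were the highest and VIT_12s0134g00030 (-1.87 ± 0.52) the lowest of those that passed the unadjusted threshold without overlap.

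The effect at (v + 28) was set against that at (v + 35) in 2013, which shares no library with it. By the paper's methods each block was sampled at every stage, so a difference between plots could recur at both stages. Agreement between the stages is therefore not independent replication, and the fit treated the libraries as independent. No gene differed between the stages after adjustment in limma, and 137 did at the unadjusted threshold (0.792%). No gene was called without soil N100 replicate 2 either, for the stages or for the years described below. The wound-responsive family had the lowest adjusted p, 0.307 for VIT_12s0057g00070, whose log2 fold change was 0.91 at (v + 28) and -1.29 ± 0.23 at (v + 35). At (v + 35) this gene had 6.44, 12.4 and 7.18 RPKM in control and 3.01, 2.98 and 3.39 RPKM in soil N100 libraries, the reverse order. All 8 members had a negative log2 fold change at (v + 35), with a median of -0.59, and 7 had an unadjusted p of at most 0.05 for the stage difference, against 2.03% of all genes. As the study had listed them for their change at (v + 28), this difference is not independent of the choice.

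Proline oxidase was at -1.19 at (v + 28) and -0.40 ± 0.15 at (v + 35), and the Myb gene VIT_07s0197g00060 at 1.26 and 0.42 ± 0.19. LBD38 (VIT_03s0091g00670) had 0.84 and -0.08 ± 0.17, and WBC11 -0.77 and 0.19 ± 0.14. These 4 stage differences had adjusted p of 1.00. The pectate lyase (1.64 ± 0.28), ENDO 2 (-0.92 ± 0.17) and PROLIFERA (-0.95 ± 0.16) had values near those of (v + 28), and so had the photosystem genes, with a median of 0.76 at (v + 35).

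Genes that the study had listed only at (v + 35) were picked for their change at that stage, which does not fix their sign at (v + 28). Genes that it had also listed at (v + 28) are left out of this group. Its sizes and counts at (v + 28) thus depend in part on the choice. Of the 101 tested that were higher at (v + 35), 97 had a positive log2 fold change at (v + 28), with a median of 0.43, and 36 (35.6%) did not overlap on the higher side, beside 5.68% of all genes. Of the 95 that were lower there, 93 were negative, with a median of -0.37, and 23 (24.2%) did not overlap on the lower side, which is near the 22% of all genes. Among all genes tested the sign was the same at both stages in 78.9%, where the median of all genes was below 0 at each stage (-0.10 and -0.10).

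In 2014, with another clone and rootstock, no gene was called at (v + 28) in limma, and 38 were higher (0.221%) and 23 lower (0.134%) at the unadjusted threshold. The difference between the years passed for 0 of 16899 genes tested in both, and for 224 (1.33%) without adjustment. Of the genes listed at (v + 28) in 2013, 249 of 283 that were higher in 2013 had a positive value in 2014 too, with medians of 0.73 and 0.18. For the lower genes 79 of 84 were negative in 2014, with medians of -0.83 and -0.27. The median of all genes tested in 2014 was -0.05, below 0 as in 2013. The share of all genes with the same sign in both years was not counted. Over the 16899 genes tested in both, the log2 fold changes of the years correlated at Pearson's r of 0.49 and Spearman's rho of 0.45. Agreement between the years was thus not limited to the listed genes. These groups also hold genes that the study listed in 2014 as well, such as CLC-B. PR genes had a median of 0.61 in 2014. Of the 17 tested genes that the study listed only in 2014, 8 were positive and 9 negative at (v + 28) in 2013, with a median of -0.06. Of these 17, 0 were higher (5.68% of all genes) and 2 lower (22%) without overlap. BG3 (VIT_08s0007g06060), a glucanase among them with the largest log2 fold change in 2013, had 2.43 ± 0.73 in 2013 and 2.04 ± 0.26 in 2014, and in 2013 read 20.9, 8.84 and 10.6 RPKM in control and 169, 20.9 and 95.6 RPKM in soil N100 libraries. Its replicates 1 and 3 were high, and replicate 2 was level with the highest control.

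Photosystem genes had a median of 0.05 in 2014 and the wound-responsive family one of 0.01. In 10 of the 26 photosystem genes and all 8 wound-responsive genes the difference between the years had an unadjusted p of at most 0.05, against 4.46% of all genes tested, and the lowest adjusted p among them was 0.988. As 19 of the 26 and all 8 had been listed for their change at (v + 28) in 2013, this excess is not independent of the choice. UGT85A1 came nearest to a difference between the years, with 0.92 ± 0.18 in 2013 and -0.33 ± 0.16 in 2014 (adjusted p = 0.514). Seed genes had a median of -0.34 in 2013 and 0.18 in 2014.

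**Figure D5:**
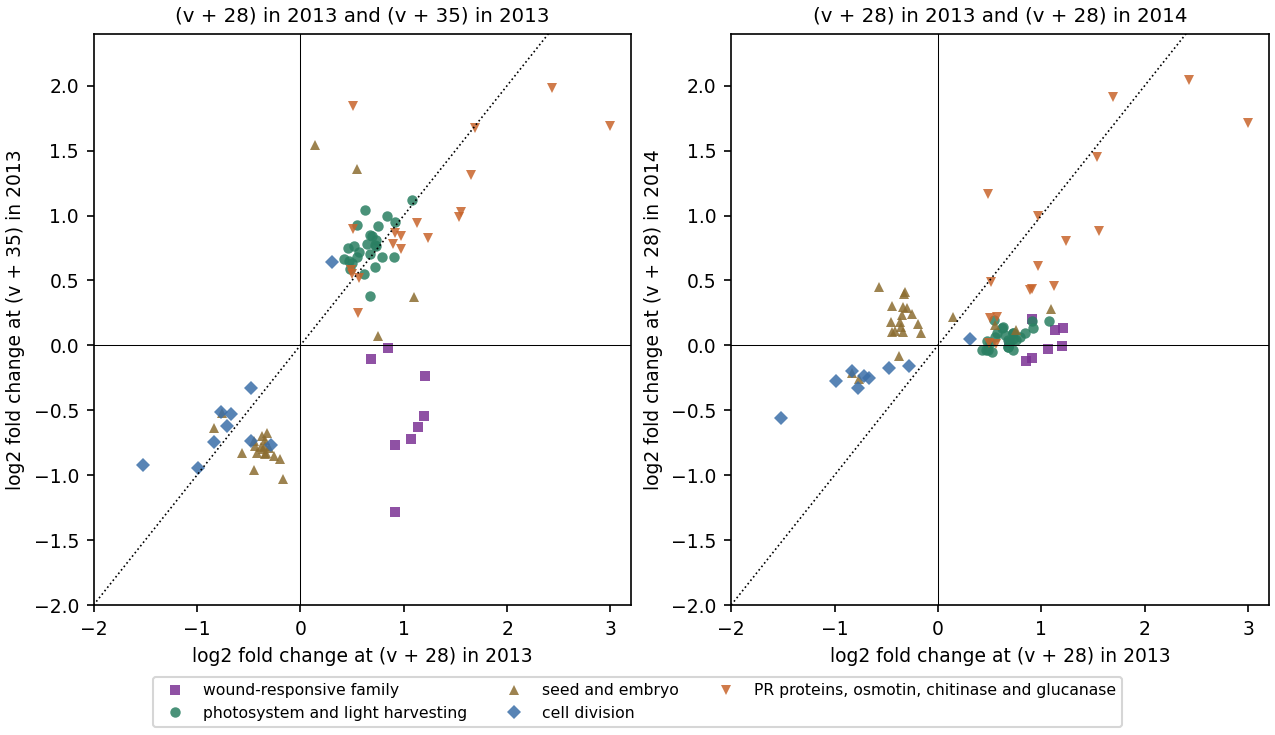
Log2 fold change at (v + 35) in 2013 (left) and at (v + 28) in 2014 (right) against that at (v + 28) in 2013 for the tested members of 5 gene lists, with the line of equal values dotted. The 8 wound-responsive genes lie between 0.68 and 1.21 at (v + 28) in 2013 and below 0 at (v + 35), and the 26 photosystem genes lie near 0 in 2014 (median 0.05).

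Genes of late ripening were taken from control vines of 2014, whose libraries do not enter the nitrogen effect of 2013. There 271 genes fell and 87 rose from (v + 28) to (v + 35) in limma, and 271 and 83 of them were tested in 2013. The genes that fell with ripening had a median log2 fold change of 0.10 for soil N100 at (v + 28) in 2013, 174 were positive, and 68 (25.1%) did not overlap on the higher side and 28 (10.3%) on the lower side. Over all genes tested these shares were 5.68% and 22%. The genes that rose with ripening had a median of -0.15, near the -0.10 of all genes, with 7 (8.43%) on the higher and 28 (33.7%) on the lower side, both above the shares over all genes. After median-ratio rescaling of both years the medians were 0.23 (214 genes) and -0.07 (97 genes), beside -0.01 for all genes. They were 0.11 and -0.16, beside -0.11, without soil N100 replicate 2. In soil N100 berries 34 of the falling genes passed the unadjusted threshold on the higher side and 4 on the lower side, and 8 and 14 of the rising genes did.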

How the data were processed

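RNA was measured by poly(A) sequencing with an unstranded kit (libraries from 12 samples per year). The authors called bases with CASAVA 1.8.2, aligned reads with TopHat2 2.0.10 and Bowtie2 2.1.0 to the 12X grapevine genome, counted uniquely aligned reads per gene (CRIBI V1 annotation) with HTSeq 0.5.4p3 and deposited RPKM values. Their own test on counts was not repeated. Their columns of fold changes between groups were not used.

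From the deposited RPKM, log2(RPKM + 0.5) was fitted with limma 3.58.1 (R 4.3.3) with a trend of variance on intensity, over the 12 libraries of 2013 in 4 groups (8 residual degrees of freedom), which share one estimate of the spread. P-values were adjusted over all genes whose mean reached 0.5 RPKM. Differences between stages and between years were tested as the difference of both nitrogen effects. The 2014 effect was fitted in the same way on the 2014 table. Whole reads were recovered from the RPKM steps for 100% of the genes listed (within 0.01 reads) and used for depth, thinning and limma-voom. Arithmetic and plots used Python 3.11.15, numpy 2.4.6, pandas 2.3.3 and matplotlib 3.10.9. The fit was tested on simulated counts with the same spread beyond counting error for every gene. The simulation held no library like soil N100 replicate 2 and no shift of the bulk of genes. It therefore does not cover these features of the data. P-values for 2013 rest on the spread between biological replicates, 3 per group, pooled over all 4 groups of that year. Libraries of the later stage thus enter this spread as well. With the 6 libraries of the comparison alone, 0 genes were called. Depth was 30.3 to 53.9 M reads in genes per library, and RPKM values of low genes carry the larger counting error.

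The members of the comparison and the 24 gene lists, built from the words of the study's gene descriptions and functional categories, were chosen with earlier results of these data known. Named were all called genes, up to 4 members per list with the smallest p, genes that the study listed in 2014, and undescribed genes with the largest differences. Beyond that rule, ASN1, the hemoglobin, ATNRT1:2, VIT_13s0019g04660, RCA, PRK, WRKY70, DMR6, NIMIN-2, AtEXPB2, GAMMA-TIP, SULTR3;5, SUS4, VIT_08s0040g01710, VIT_18s0001g03430, ATK2, OLEO1, EXL2, MYB24 and the genes named under the other observations were chosen after their values were seen. None of the 26740 gene IDs of both tables matched the reference table (0 found), so that descriptions come from the study, and gene positions were not used here. Alternatives were other pseudocounts and filters, other scalings, limma-voom, thinning, a replicate block and leaving out each library.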

Additional observations from a re-analysis of the deposited data

How the results depend on the processing

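The 12 calls at (v + 28) in 2013 (5 higher and 7 lower) became 11 with a pseudocount of 0.1, 12 with one of 1, 10 with a minimum of 2 RPKM and 10 by limma-voom on recovered reads, 10, 12, 10 and 10 of the 12 genes among them. They became 6 (4 and 2) under either rescaling, by median ratios or by quantiles, 3 (1 and 2) without the intensity trend, 44 (19 and 25) with thinned reads, and 0 (0 and 0) without a filter (308 and 243 genes at the unadjusted threshold) or with the 6 libraries alone (314 and 239). Without an adjustment 553 genes passed. Leaving out 1 library gave 0 to 442 calls (0 to 203 higher and 0 to 239 lower). The (v + 35) libraries count as well, since they share the spread: without soil N100 replicate 2 of (v + 35) 122 genes were called, without replicate 3 31, without replicate 1 0, and 1 without control replicate 2 and 4 without control replicate 1 or 3. Median ratios without soil N100 replicate 2 gave 280 calls (211 and 69). Settings that join median ratios with another choice, and the ripening genes without soil N100 replicate 2, were chosen after seeing the data. Where an arm kept 2 libraries, the fit took its spread from all groups.

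At the unadjusted threshold, the 311 higher genes became 553 without soil N100 replicate 2 and 744 with median ratios in addition (215 to 553 when leaving out 1 library). The 242 lower genes became 421 with a pseudocount of 0.1, 152 with one of 1, 131 with median ratios, 144 by quantiles, 423 by limma-voom and 405 without soil N100 replicate 2 (176 to 405 when leaving out 1 library). Genes without overlap, 983 higher and 3808 lower, became 1847 and 1731 with median ratios, 1617 and 2046 by quantiles, and 3248 higher with median ratios and without soil N100 replicate 2. Leaving out 1 library gave 1194 to 2000 higher and 4564 to 5522 lower.

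Replicate numbers were no proven pairs. Same-numbered libraries deviated from their group means with correlations of 0.36, -0.32 and 0.01, and the labels do not say that a number marks a field block. With a replicate block 212 genes were called (95 and 117), the 12 among them, and with block and median ratios 207 (141 and 66), with 134 lower at the unadjusted threshold. The difference between the years gave 1 call with the replicate block. It gave 0 to 1 when leaving out 1 library, and the difference between the stages gave 0 throughout.

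Of 299 values of the 12 called genes none reversed in direction, and 148 of them lost the call. The groups of these genes do not overlap, so leaving out a library or changing the pseudocount could not reverse the sign. The missing reversals under those settings are therefore no evidence on direction. The count of 19 of 24 lists with a median above that of all genes stayed within its 1.5-fold range. List medians kept their sign under both rescalings. Under the other settings 3 turned: phenylpropanoid genes to 0.06 without a filter, protease inhibitors from 0.31 to -0.29 without control replicate 1, and the 3 abscisic acid genes from -0.25 to 0.20 with a minimum of 2 RPKM. The cause of these moves was not tested.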

Other observations

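Outside the lists, several described genes lay close to the adjusted threshold at (v + 28) in 2013, with groups that did not overlap. PHO2 (VIT_00s0265g00070), a ubiquitin-conjugating enzyme that in Arabidopsis limits phosphate uptake, had 46.0, 51.0 and 46.3 RPKM in the control and 28.4, 31.3 and 16.7 RPKM in the soil N100 libraries (log2 fold change -0.94 ± 0.18, limma adjusted p = 0.0562). A glutamine-tRNA ligase (OVA9, VIT_01s0011g03740) was at 11.0, 12.0 and 10.5 RPKM and 6.88, 6.91 and 4.78 RPKM (-0.82 ± 0.14). The arabinogalactan protein AGP20 (VIT_15s0046g01360), a proteoglycan of the cell surface, stood at 5.23, 5.69 and 5.53 RPKM and 16.6, 10.1 and 17.9 RPKM (1.32 ± 0.23). In AGP20 soil N100 replicate 2 was the soil N100 library nearest to the controls, and in PHO2 soil N100 replicate 3 was the farthest.

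Some called genes had another gene of the same description on the same side. A further chloroplast nucleoid DNA-binding gene (VIT_00s0429g00040) had 19.2, 17 and 27.5 RPKM in control and 9.62, 12.3 and 7.09 RPKM in soil N100 libraries (-1.10 ± 0.20, limma adjusted p = 0.0562). A further DC1 domain gene (VIT_01s0127g00560) had 13.6, 12.4 and 12.1 RPKM and 36.3, 18.2 and 28.4 RPKM (1.04 ± 0.20). Both had the sign of the called gene, and how reads were split between such similar genes is uncertain. Without soil N100 replicate 2 both were called (adjusted p = 0.0168 and 0.0093).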
